A study of Rattus norvegicus with 9 samples.

Results

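The genes described here code for the receptors for insulin and insulin-like growth factor 1 (Insr and Igf1r), the receptor substrates Irs1 and Irs2, the growth factor Igf1, the kinases Akt1 and Akt2 and the transcription factors Foxo1 and Foxo3. They were chosen by symbol from what is known of the pathway, and all 9 had a row among the 28343 genes of the count table. RNA was sequenced from retinal microglia of Dark Agouti rats, an inbred strain, in 5 control and 4 diabetic libraries. Diabetic rats had received streptozotocin, which destroys pancreatic beta cells, at 55 mg/kg when 8 to 10 weeks old, and control rats citrate buffer. Both were fasted for 12 hours before the injection and followed for 4 weeks after it, with 2 units of insulin for diabetic animals whose glucose exceeded 30 mmol/l. The diabetic group is thus a model of insulin loss with occasional replacement, and no untreated group or other genotype was compared.

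Insulin and the insulin-like growth factors bind related receptor tyrosine kinases at the cell surface. The active receptors phosphorylate the IRS proteins, which recruit phosphatidylinositol 3-kinase, and the lipid it makes brings AKT kinases to the membrane. AKT phosphorylates FOXO factors and so holds them out of the nucleus, and it also acts on the mTOR and GSK3 arms. In the nervous system microglia are a known source of IGF1. Most of this signalling runs through phosphorylation, which RNA levels do not measure.

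No difference between diabetic and control microglia was detected for any of the 8 testable genes. Irs1 was at or near 0 in nearly every library and was too low to test. Of the other 8, 0 were called at an adjusted p below 0.05 (edgeR quasi-likelihood test, Benjamini-Hochberg over 11748 genes), where 0.0681% of all genes tested were called. At an unadjusted p below 0.05 there were again 0 of 8, against 18.9% of all genes. The control and diabetic ranges overlapped for all 8, and 8.44% of all genes had groups that did not overlap. The log2 fold change, diabetic minus control, was below 0 for 7 genes and above 0 for 1, with a median of -0.162 beside 0.00173 over all genes.

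Levels are normalised CPM, the counts of a gene relative to the library total after scaling by normalisation factors, with the mean ± SD over 5 control and 4 diabetic libraries. Total counts were 9156591 to 11332823 in the control libraries and 6228756 to 9629829 in the diabetic ones, diabetic 4 being the shallowest. Microglial markers made up 2.88% to 4.02% of control counts and 3.54% to 3.85% of diabetic counts, and 13 of 14 were found in all 9 libraries. Genes listed for blood and border myeloid cells, which CD11b also selects, took 0.178% to 0.246% and 0.224% to 0.395%. That list also holds the T cell gene Cd3e and the B cell gene Cd79a, at 0 to 1 and 1 to 12 counts per library. Within the whole list Lyz2 held the most counts in every library. Genes known to respond to cell isolation, such as Fos and Jun, took 2.62% and 3.19% in controls 4 and 6, 0.443% to 0.98% in the other controls and 1.28% to 2.11% in the diabetic libraries. As these are pooled cells, fewer cells of a type and less RNA per cell cannot be told apart. The labels do not say that each library came from its own animal, so the p-values measure the spread between these libraries.

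**Figure D1:**
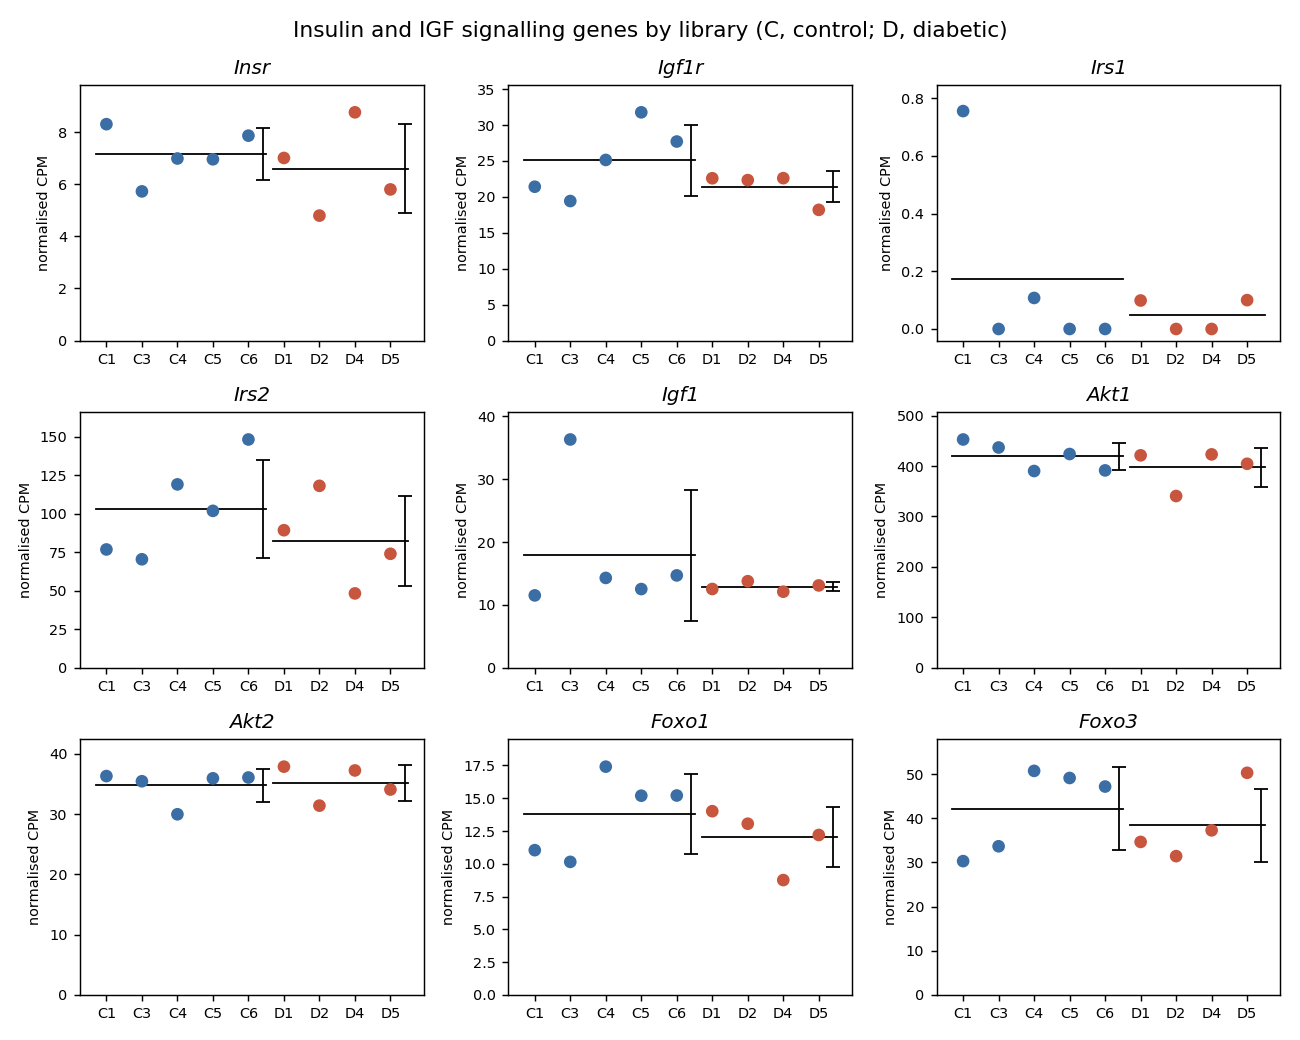
Normalised CPM of each gene (vertical axes, each with its own scale) in the 9 libraries (horizontal axes, C for control in blue, D for diabetic in red). Long lines are group means and bars 1 SD, left out for Irs1; control 3 stands far above the other libraries for Igf1, and Irs1 is near 0 in all but control 1.

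Insr codes for the insulin receptor. Its level was 8.30, 5.72, 6.99, 6.96 and 7.86 CPM in controls 1, 3, 4, 5 and 6, and 7.01, 4.79, 8.76 and 5.80 CPM in diabetic libraries 1, 2, 4 and 5. The lowest and the highest value were both diabetic, so the control range lay inside the diabetic one. The means were 7.17 ± 0.992 and 6.59 ± 1.71 CPM, and the log2 fold change was -0.13 (SE 0.22, 95% interval -0.60 to 0.35, edgeR adjusted p = 0.771). It was -0.29 without diabetic 4 and -0.0017 without diabetic 2. Each value rested on 47 to 88 counts. The interval allows a diabetic level between 0.658 and 1.27 times the control level.

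Igf1r codes for the receptor that binds IGF1 with high affinity. Control values were 21.4, 19.4, 25.1, 31.8 and 27.7 CPM, and diabetic values were 22.6, 22.3, 22.6 and 18.2 CPM. Controls 4, 5 and 6 lay above every diabetic library, while controls 1 and 3 lay among them. Means of 25.1 ± 4.93 and 21.4 ± 2.16 CPM gave a log2 fold change of -0.23 (SE 0.16, interval -0.57 to 0.12, edgeR adjusted p = 0.439). The value closest to a call in any alternative came without control 3, at -0.31 with an adjusted p of 0.286.

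The balance of the receptors was also taken within each library. The log2 ratio of Igf1r to Insr counts averaged 1.79 ± 0.292 in control and 1.72 ± 0.354 in diabetic libraries, a difference of -0.067 (2-sided exact permutation test, p = 0.698, adjusted over 4 ratios 0.937). These ratios are not corrected for gene length, so they compare libraries with each other and not the genes.

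Igf1, the ligand, had one library far from the rest. The controls stood at 11.5, 36.3, 14.3, 12.5 and 14.7 CPM, and the diabetic libraries at 12.5, 13.8, 12.1 and 13.1 CPM. Control 3 held 419 counts of the gene, where the other 8 libraries held 76 to 135. Outside control 3 the values ran from 11.5 to 14.7 CPM, and all 4 diabetic values fell within that span. Means of 17.9 ± 10.4 and 12.9 ± 0.723 CPM gave a log2 fold change of -0.48 (SE 0.32, interval -1.19 to 0.23, edgeR adjusted p = 0.425). Without control 3 it was -0.039 (adjusted p = 0.912), so the group difference rested on that library.

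In control 3 the summed coverage of assembled Igf1 transcripts was high over all 4 exons. The reference transcript lies on the plus strand of chromosome 7, from 28412198 to 28486609 in the Rnor6 build, with 4 exons. Exon coverage here is the mean coverage of each assembled transcript, on both strands, summed over the part of the exon it overlaps. It was 23.4, 21.2, 19.4 and 10.4 reads per base over exons 1 to 4 of control 3. In the other libraries exon coverage ran from 0 to 7.08 reads per base. It was 0 at exon 2 in diabetic 1 and diabetic 4, where no assembled transcript overlapped that exon. The full 4-exon transcript was assembled in control 3 alone, and the others gave other models at the locus. The share of the locus TPM placed on the opposite strand ran from 0% in control 4 to 92.9% in control 3, with a median of 53.6%, so the strand of the reads cannot be used here.

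**Figure D2:**
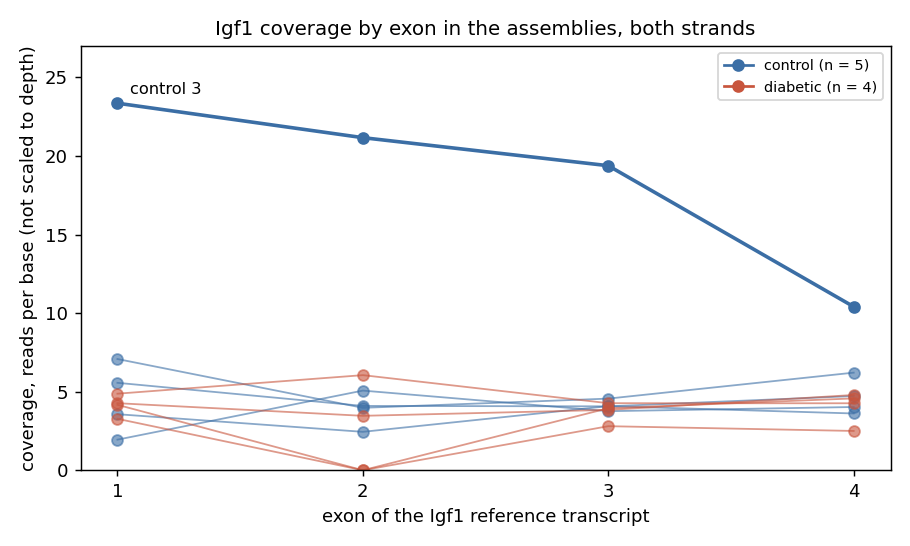
Coverage in reads per base (vertical axis, not scaled to library depth) over the 4 exons of the Igf1 reference transcript (horizontal axis), 1 line per library. Values sum the mean coverage of the assembled transcripts that overlap each exon, on both strands. Control 3 lies above the other 8 libraries at all 4 exons, from 23.4 at exon 1 to 10.4 at exon 4.

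The genes whose centred log2 CPM followed Igf1 most closely over the 9 libraries were Rspo1, Nrp1 and Pld3, with mean absolute differences of 0.117, 0.154 and 0.186 log2 units. Igf1 itself deviated from its own mean by 0.291 on average. Rspo1 codes for a secreted WNT agonist, Nrp1 for a co-receptor of semaphorins and VEGF, and Pld3 for a lysosomal enzyme. They were chosen by this likeness, so a shared high library follows from the choice. All were highest in control 3, at 19.0 CPM for Rspo1, 386 CPM for Nrp1 and 110 CPM for Pld3. The next highest values were 9.18, 261 and 62.6 CPM.

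Control 3 also had the lowest share of cell isolation genes, 0.443%. Among the controls it was highest in the border macrophage markers Lyve1 (364 CPM), Mrc1 (103 CPM) and F13a1 (148 CPM). Cd163 and Ms4a7, also markers of such cells, were not highest there. Control 3 had 51.3 CPM of Cd163, where control 5 had 92.0 CPM, and 14.2 CPM of Ms4a7, where control 6 had 15.5 CPM. Diabetic 1 exceeded control 3 in Lyve1 (487 CPM), Mrc1 (147 CPM) and F13a1 (355 CPM), and had 12.5 CPM of Igf1. Over the whole blood and border list control 3 stood at 0.24%, within the control range of 0.178% to 0.246%. Lyz2 held the most counts of that list in every library, 18804 in control 3 where Lyve1 had 4195. The share therefore says little of the other listed genes. The part of these genes in the Igf1 value was not tested.

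Irs1, the adaptor that carries much of insulin signalling in muscle and fat, was almost absent. It had 8, 0, 1, 0 and 0 counts in the controls and 1, 0, 0 and 1 in the diabetic libraries. In this paragraph CPM is relative to the library totals, without normalisation factors. The control sum of 9 counts is 0.180 CPM (exact Poisson 95% interval 0.0822 to 0.341), and the diabetic sum of 2 is 0.0580 CPM (0.00703 to 0.210). Those intervals overlap and cover counting error only, as do the limits below. Control 1 held 8 of the 11 counts, and the other 8 libraries together had 3, or 0.0404 CPM. In the 5 libraries at 0, the limit that a count of 0 allows, 3 counts, lay at 0.265 to 0.482 CPM.

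Control 1 was also the library with the most vascular signal. Vascular markers took 0.03% of its counts and 0.00917% to 0.0177% of those of the other 8. The endothelial gene Cldn5 was at 57.5 CPM there and at 27.5 CPM in control 3, which had no Irs1 count. The part of vascular RNA in the Irs1 counts was not tested.

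Irs2, the other main adaptor, had 303 to 1158 counts per library and varied about as widely as Igf1, with the highest library 3.07 times the lowest. Controls had 76.8, 70.4, 119, 102 and 148 CPM, and diabetic libraries 89.3, 118, 48.2 and 74.0 CPM. Controls 4 and 6 were highest and diabetic 4 lowest, with diabetic 2 level with control 4. The means were 103 ± 31.8 and 82.4 ± 29.2 CPM, and the fitted log2 fold change was -0.32 (SE 0.29, interval -0.97 to 0.33, edgeR adjusted p = 0.552). The interval runs from 0.51 to 1.26 times the control level, so it is wide on both sides of no change. Diabetic 4 was also the only library where the full Irs2 reference transcript was not assembled. Its exon coverage, not scaled to depth, was 0.874 reads per base at exon 1 and 6.74 at exon 2. In the other libraries exon 1 had 6.73 to 16.6 reads per base.

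The 2 controls with the highest Irs2 were also those with the largest shares of cell isolation genes. Leaving out both, an alternative added after seeing the data, gave a log2 fold change of -0.011 (edgeR adjusted p = 0.99). With the mean log2 CPM of the tested cell isolation genes as a covariate, in place of their share, it was -0.25 (edgeR adjusted p = 0.445). Without diabetic 4 alone it was -0.14, and without diabetic 2 alone it was -0.55 (adjusted p = 0.396), the ends of the range when 1 library was left out.

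Fancm, C1galt1 and Herpud1 followed Irs2 most closely over the 9 libraries, with mean absolute differences of 0.146, 0.154 and 0.156 log2 units where Irs2 deviated from its mean by 0.384. Fancm codes for a DNA repair helicase, C1galt1 for an enzyme of O-glycosylation and Herpud1 for a component of endoplasmic reticulum stress handling. As their choice by likeness to Irs2 favours, all had their lowest value in diabetic 4, at 12.1, 15.8 and 607 CPM. C1galt1 and Herpud1 were highest in control 6 (45.8 and 1570 CPM) and Fancm in control 4 (29.9 CPM). None was called between groups.

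Within libraries the log2 ratio of Irs2 to Irs1 averaged 9.77 ± 1.89 in control and 9.65 ± 1.03 in diabetic libraries, a difference of -0.12 (exact permutation p = 0.937, adjusted 0.937). It rests on a pseudocount of 0.5 for the 5 libraries without an Irs1 count, and the low value of 6.58 in control 1 comes from the 8 Irs1 counts there. In counts, no library had more than 8 of Irs1 or fewer than 303 of Irs2.

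The AKT kinases were the steadiest genes of the 9. Akt1, the broadly expressed form, had 453, 437, 390, 424 and 391 CPM in the controls and 421, 341, 423 and 405 CPM in the diabetic libraries. Only diabetic 2 fell below the control range. Means were 419 ± 27.7 and 397 ± 38.8 CPM, and the log2 fold change was -0.076 (SE 0.093, interval -0.28 to 0.13, edgeR adjusted p = 0.668). The interval excludes a diabetic level under 0.825 or over 1.09 times the control level.

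Akt2, the form most tied to insulin-stimulated glucose uptake, was at 36.3, 35.5, 30.0, 35.95 and 36.1 CPM in controls and 37.9, 31.4, 37.3 and 34.1 CPM in diabetic libraries. The low values were control 4 and diabetic 2, and the highest was 1.26 times the lowest. Means of 34.8 ± 2.69 and 35.2 ± 3.001 CPM gave a log2 fold change of 0.016 (SE 0.11, interval -0.22 to 0.25, edgeR adjusted p = 0.949), which is 0.858 to 1.19 times the control level.

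The log2 ratio of Akt2 to Akt1 was -3.64, -3.62, -3.70, -3.56 and -3.44 in the controls and -3.47, -3.44, -3.50 and -3.57 in the diabetic libraries. Control 6 lay among the diabetic values, control 5 just above the lowest of them, and the other controls below them all. The means of -3.59 ± 0.0998 and -3.50 ± 0.0553 differed by 0.096 (exact permutation p = 0.127, adjusted 0.508). The smallest p that this exact test allows with 9 libraries is 0.00794.

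Foxo1 and Foxo3 code for transcription factors that AKT inhibits. Foxo1 was at 11.04, 10.1, 17.4, 15.2 and 15.2 CPM in controls and 14.01, 13.1, 8.76 and 12.2 CPM in diabetic libraries. Controls 4, 5 and 6 were above every diabetic library and controls 1 and 3 below 3 of the 4. Means were 13.8 ± 3.08 and 12.0 ± 2.29 CPM, and the fitted change was -0.19 on the log2 scale (SE 0.20, interval -0.63 to 0.25, edgeR adjusted p = 0.620). Without controls 4 and 6 it was -0.012, and leaving out 1 library gave values from -0.28 (without control 3) to -0.074 (without diabetic 4).

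Foxo3 stood at 30.3, 33.6, 50.7, 49.1 and 47.2 CPM in controls and 34.6, 31.4, 37.3 and 50.3 CPM in diabetic libraries. Controls 4, 5 and 6 and diabetic 5 formed the upper values, and the other 5 libraries lay between 30.3 and 37.3 CPM. Means of 42.2 ± 9.49 and 38.4 ± 8.28 CPM gave a log2 fold change of -0.13 (SE 0.19, interval -0.54 to 0.27, edgeR adjusted p = 0.713). It was 0.021 without controls 4 and 6, and leaving out 1 library gave values from -0.29 (without diabetic 5) to -0.048 (without diabetic 2).

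The log2 ratio of Foxo3 to Foxo1 differed little in mean, 1.61 ± 0.112 in control and 1.67 ± 0.449 in diabetic libraries (difference 0.064, exact permutation p = 0.754, adjusted 0.937). The diabetic ratios were spread more widely. They were 1.303, 1.26, 2.08 and 2.04 in diabetic 1, 2, 4 and 5, while controls ran from 1.45 to 1.72. The difference in spread was not tested.

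**Figure D3:**
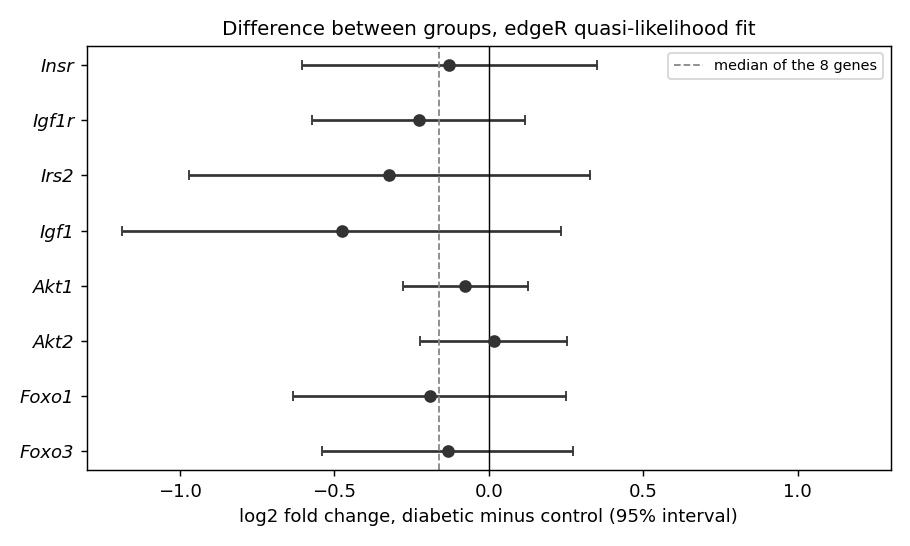
Log2 fold change, diabetic minus control (horizontal axis), of the 8 genes tested (rows), with points for the edgeR estimate and bars for its 95% interval; the solid line marks 0 and the dashed line the median of -0.162. All 8 intervals cross 0, and those of Akt1 and Akt2 are the narrowest.

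Levels can be set beside each other only per length, which the deposited assemblies gave for 5 of the 9 genes. Per kilobase of reference exons, Akt1 was highest at 173 ± 11.5 CPM (control) and 164 ± 16.1 CPM (diabetic). Irs2 followed with 15.9 ± 4.90 and 12.7 ± 4.49 CPM per kilobase, and Foxo3 with 14.6 ± 3.30 and 13.3 ± 2.87. These neighbours did not differ beyond their spread. Igf1 had 9.78 ± 5.69 and 7.05 ± 0.396, and Foxo1 had 5.39 ± 1.203 and 4.69 ± 0.894. The control values of Igf1 overlap those of both neighbours within 1 SD, and its diabetic SD range does not reach that of either.

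In Rnor6, Irs2 lies on the plus strand of chromosome 16 from 83824430 to 83848684 with 2 exons, and its full reference transcript was assembled in 8 of 9 libraries. Akt1 lies on the minus strand of chromosome 6 from 137218376 to 137236258 with 13 exons and was assembled in full in 5. Foxo3 spans 46428124 to 46519144 on the plus strand of chromosome 20 and was assembled in full in 4. Foxo1 spans 141451234 to 141527016 on the plus strand of chromosome 2, was assembled in full in 2, had no transcript in diabetic 4 and only an opposite-strand one in diabetic 5. Diabetic 4 was the shallowest and had 55 counts of Foxo1, the fewest of the 9. The opposite strand also held much of the locus TPM of the other genes. Its share was 69.29% to 86.04% for Irs2, 67.95% to 87.5% for Foxo3 and 48.03% to 63.22% for Akt1. The strand of the reads cannot be used for these genes either.

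FOXO factors bind DNA at a GTAAAC core, and Insr is a known FOXO target, so the 250 bases before each gene's start were searched for it on both strands. RefSeq promoters (GRCr8 build) were at hand for 7 of the 9 genes, not for Irs2 or Foxo3. The core GTAAAC or its reverse GTTTAC was in 3 of the 7, and in 7.0% of all 33469 promoters. The longer GTAAACA or TGTTTAC, which contains the core, was in Insr alone of the 7, and in 3.21% of all. The 30 bases around each core follow, 5′ to 3′ on the gene's strand with the core in capitals. They show where in each promoter the letters fall, 99 bases before the start for Insr, 138 for Igf1 and 78 for Akt2. They lie at chr12:6128885-6128914 (minus strand), chr7:24172382-24172411 (plus) and chr1:92021827-92021856 (plus).
Insr: acgggccgcgttGTTTACtggccggagtcg
Igf1: ggacaaaaggcaGTTTACccaggctcctag
Akt2: gaggtggagtagGTAAACttttataagttc
A match is a description of the letters and does not show that a factor binds there.

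The rest of the pathway was examined by lists. None of the genes in the 6 lists was called at an adjusted p below 0.05. In the ligands, other receptors and IGF binding proteins, 6 of 14 were tested, 4 above 0 and 2 below, with a median of 0.243 beside 0.00173 over all genes. The insulin genes Ins1 and Ins2 were at 0 in all libraries. Of the 6 tested, 1 was past an unadjusted p of 0.05, as were 18.9% of all genes tested. This was Igf2r, the receptor that takes up IGF2 for degradation. It had 4.51 to 9.67 CPM in controls and 9.69 to 17.7 CPM in diabetic libraries, so the groups did not overlap, though by a narrow margin (log2 fold change 0.61, SE 0.25, edgeR adjusted p = 0.217). Igfbp4, an IGF binding protein, averaged 0.822 ± 0.664 and 2.06 ± 0.854 CPM on 0 to 21 counts (1.26, SE 0.63, adjusted p = 0.295).

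Among the other adaptors and receptor-level inhibitors, 19 of 22 were tested, 4 above 0 and 15 below, with a median of -0.163. Dok1, an adaptor that restrains tyrosine kinase signalling, had the smallest p, with 35.9 ± 4.89 CPM (control) and 48.7 ± 6.82 CPM (diabetic) (log2 fold change 0.44, SE 0.13, edgeR adjusted p = 0.126). Enpp1, a membrane enzyme known to inhibit the insulin receptor, averaged 7.75 ± 2.67 and 4.24 ± 2.90 CPM (-0.85, SE 0.43, adjusted p = 0.304). The list of PI3K subunits, lipid phosphatases and AKT regulators had the same balance, with 19 of 20 tested, 4 above 0, 15 below and a median of -0.164. Phlpp1, a phosphatase that removes an activating phosphate from AKT, was 23.4 to 40.6 CPM in controls and 20.2 to 22.2 CPM in diabetic libraries, with no overlap (-0.57, SE 0.17, adjusted p = 0.126). Pik3cg, a PI3K catalytic subunit of white blood cells, averaged 363 ± 47.7 and 285 ± 39.1 CPM (-0.35, SE 0.12, adjusted p = 0.173).

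All 18 genes of the mTOR and GSK3 arm were tested, 8 above 0 and 10 below, with a median of -0.0322. Eif4ebp1, the translation repressor that mTOR inactivates, averaged 20.6 ± 4.28 CPM (control) and 31.2 ± 6.04 CPM (diabetic) (log2 fold change 0.60, SE 0.18, edgeR adjusted p = 0.125). Rheb, the small GTPase that activates mTOR, was at 163, 189, 277, 159 and 330 CPM in the controls and 155, 143, 147 and 153 CPM in the diabetic libraries. The groups did not overlap, and controls 4 and 6 were far above the others (-0.58, SE 0.21, adjusted p = 0.192). Without those controls the Rheb value was -0.20 and its adjusted p 0.352.

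Of other FOXO factors and genes known as FOXO targets, 16 of 21 were tested, 8 above 0 and 8 below, with a median of -0.06. Txnip, which codes for a thioredoxin-binding brake on glucose uptake and is induced by glucose, had the smallest p of the list. It had 493, 526, 396, 483 and 346 CPM in controls and 666, 731, 733 and 789 CPM in diabetic libraries, so every diabetic library lay above every control. The log2 fold change of 0.70 (SE 0.12, interval 0.44 to 0.97) had an edgeR adjusted p of 0.0608. Without controls 4 and 6 it was 0.54 with an adjusted p of 0.0585, and under the 18 alternatives it ranged from 0.54 to 0.80 and passed the threshold in 5. G6pc, listed for the glucose-releasing phosphatase of liver, averaged 106 ± 6.58 and 86.7 ± 6.61 CPM with no overlap (-0.29, SE 0.091, adjusted p = 0.134).

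Of 10 genes known to be induced by insulin, 6 were tested, 2 above 0 and 4 below, with a median of -0.284. Fasn, the fatty acid synthase, had 69.4, 59.2, 105, 94.4 and 156 CPM in controls and 56.6, 40.2, 54.0 and 56.9 CPM in diabetic libraries. Its diabetic values all lay below the controls, by a narrow margin from control 3 (log2 fold change -0.90, SE 0.26, edgeR adjusted p = 0.129). Without controls 4 and 6 the change was -0.53 (adjusted p = 0.197). Hk2, a hexokinase that starts glycolysis, averaged 298 ± 40.3 and 251 ± 12.6 CPM (-0.25, SE 0.11, adjusted p = 0.239). Srebf1, a regulator of lipid synthesis named after its values were seen, lay the other way, at 93.0 ± 5.10 and 107 ± 8.42 CPM (0.20, SE 0.090, adjusted p = 0.25).

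Over the 6 lists, 6 of the 84 genes tested (7.14%) had groups that did not overlap, Igf2r, Phlpp1, Rheb, Txnip, G6pc and Fasn. That share is near the 8.44% of all genes tested. The untested Trim63, of the FOXO target list, did not overlap either, at 0.428 to 2.08 CPM in controls and 0 to 0.408 CPM in diabetic libraries. Markers of other cells were set beside these differences. Of the 14 genes listed for blood and border myeloid cells, 4 lay higher in every diabetic library than in any control (Cd163, Plac8, S100a8 and S100a9) and 0 lay lower. Cd163 was at 38.8 to 92.0 CPM in controls and 119 to 262 CPM in diabetic libraries, and S100a9 at 0.214 to 5.57 and 14.8 to 52.9 CPM. Of 16 markers of inner retinal neurons, Pcp2 and Prkca were the 2 whose diabetic values all lay above the controls. None of these 6 markers passed the adjusted threshold, and their part in the differences of the pathway genes was not tested.

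**Figure D4:**
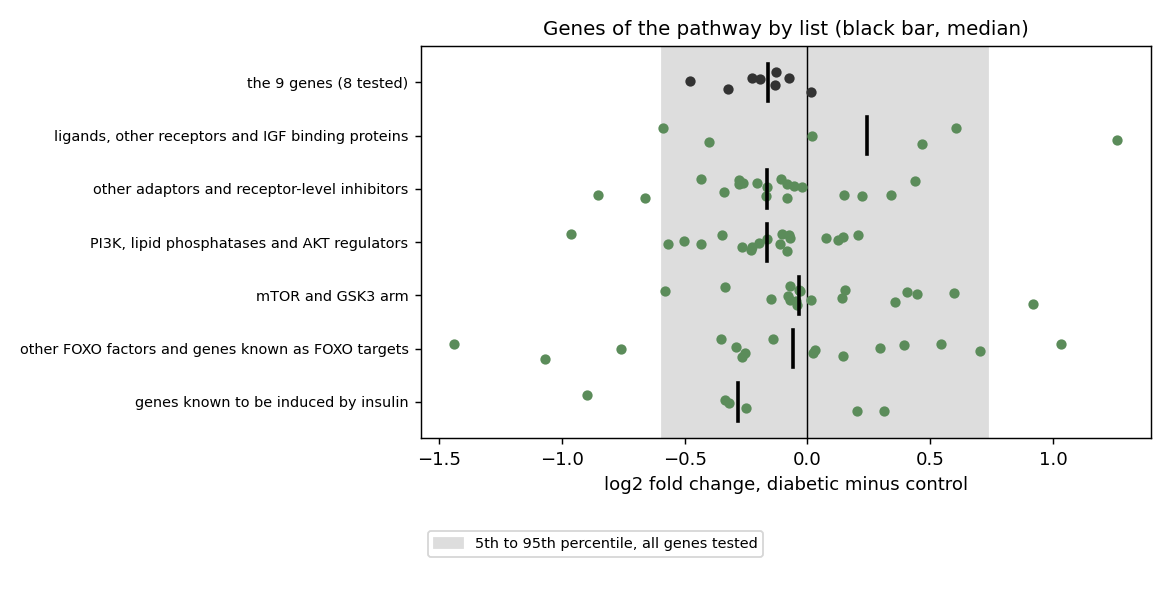
Log2 fold change, diabetic minus control (horizontal axis), of each tested gene in the 9-gene set and the 6 pathway lists (rows), with black bars at the medians; points are spread vertically for clarity. The grey band spans the 5th to 95th percentile of all genes tested, -0.592 to 0.734, and all 8 genes of the set lie inside it.

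The authors' deposited table holds the same 8 genes and not Irs1, and calls none of them, where it calls 254 of 12069 genes (2.1%). In the authors' deposited table the log2 fold change was -0.015 for Insr, -0.10 for Igf1r, -0.17 for Irs2, -0.37 for Igf1, 0.032 for Akt1, 0.13 for Akt2, -0.058 for Foxo1 and -0.0085 for Foxo3. The adjusted p values of the authors' deposited table for them ran from 0.625 for Igf1 to 0.989 for Foxo3. Its values differed by at most 0.0566 from an edgeR fit without normalisation factors.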

How the data were processed

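Whole retinas were papain digested and CD11b-labelled cells sorted; RNA was preamplified with a SmartSeq kit and made into Nextera XT libraries, per the labels' protocols. The submitters' processing notes name bcl2fastq 2.18.0.12, TopHat2 2.0.14, StringTie 1.2.4 and edgeR. The authors deposited raw gene counts per library. Which program made them, and its strand setting, is not given in the sources used here. The authors also deposited a table of log2 fold changes with p-values and adjusted p-values, and a StringTie assembly per library, whose coverage and TPM values were read for the members (build Rnor6, per the file headers).

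The counts were tested with edgeR 4.0.16 in R 4.3.3 (filterByExpr with a minimum count of 10, TMM factors, robust quasi-likelihood fit, diabetic against control), with Benjamini-Hochberg adjustment over 11748 genes and a threshold of 0.05. The standard error is the fold change divided by the root of F, and 95% intervals use the test's degrees of freedom. The test was checked on simulated data. Within-library ratios used counts plus 0.5 and an exact permutation test. Alternatives were other normalisations, no filter, DESeq2 1.42.0, limma 3.58.1 (voom), a cell isolation covariate, a replicate block and leaving out libraries. Where exact positions were known only from a reference transcript in the assemblies (5 genes), length and position were given. The members and lists were chosen by symbol from what is known of the pathway, but with earlier results of these data known. Named pathway genes were those past the adjusted threshold in a list, otherwise the 2 with the smallest p; likeness was examined for the 2 members with the widest range of log2 CPM. No molecular identifiers are named, so counts are reads.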

Additional observations from a re-analysis of the deposited data

Results flagged for a closer look

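Of 50 groups of values examined, 7 had a highest or lowest library far from the rest by Dixon's criterion, which chance meets in about 1 of 20 groups. Igf1 was at 36.34 CPM in control 3, where the next control had 14.69 CPM. Irs1 was at 0.7548 normalised CPM in control 1, next to 0.1075. Igf1r was low in diabetic 5, at 18.2 CPM where the next diabetic library had 22.34 CPM. Akt2 was low in control 4, at 29.98 CPM next to 35.47 CPM. The log2 ratio of Irs2 to Irs1 was 11.18 in diabetic 2, next to 9.246, and diabetic 2 had no Irs1 count. Igf2r was low in control 6, at 4.511 CPM next to 8.56 CPM, and Igfbp4 was high in diabetic 4, at 3.344 CPM next to 1.677 CPM.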

How the results depend on the processing

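None of the 8 tested genes was called under any of 18 alternatives (146 gene results with those of Irs1, 0 called). Irs1 entered 2 of them. It was not called by edgeR with no filter (adjusted p = 0.584), and DESeq2 gave it no adjusted p, so it could not be called there. The number of genes called over the whole table was 8 by edgeR, 8 with DESeq2 size factors, 31 with upper-quartile factors, 29 with no factors, 42 with no filter, 598 by DESeq2, 4 by limma-voom and 840 with the cell isolation covariate. Leaving out 1 library gave 0 to 75, the latter without control 1 and 0 without control 4, diabetic 1 or diabetic 4, and leaving out controls 4 and 6 gave 0 (1775 at an unadjusted p below 0.05). Deviations of libraries that share a replicate number correlated at 0.201, -0.114 and 0.0156 for numbers 1, 4 and 5. Control 1 was closest to diabetic 1, but control 4 to diabetic 5 and control 5 to diabetic 4. These 3 values cannot settle whether the numbers pair libraries. The replicate block over the 3 shared numbers called 0 genes by edgeR (1150 at an unadjusted p below 0.05). The cause of these differences was not tested. Without factors the median of all genes shifted to 0.117. Signs turned for Akt1 without factors (0.032), for Akt2 without control 4 (-0.033), diabetic 1 (-0.022), diabetic 4 (-0.012) or controls 4 and 6 (-0.041; leaving out 1 library gave -0.033 to 0.0663), and for Foxo3 without controls 4 and 6 (0.021). With the block the ratio differences were -0.234 for Igf1r to Insr, 0.141 for Irs2 to Irs1, 0.117 for Akt2 to Akt1 and 0.247 for Foxo3 to Foxo1, where 3 pairs allow no p below 0.25. Leaving out 1 library gave -0.229 to 0.0541, -0.913 to 0.234, 0.0685 to 0.134 and -0.072 to 0.2 in the same order. From assembled TPM, in the 8 libraries with a Foxo1 transcript on either strand (only the opposite one in diabetic 5), the Foxo3 to Foxo1 difference was -0.0513. A ratio without pseudocount could not be had for Irs2 to Irs1, nor TPM ratios for the other pairs. Of 216 results for the other named pathway genes, 12 were called: Txnip 5 times, Fasn with DESeq2 and the covariate, G6pc with DESeq2, and Dok1, Phlpp1, Eif4ebp1 and Rheb with the covariate. Irs1 had too few counts for the main test.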
